A study of Saccharomyces cerevisiae with 24 samples.

Results

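Transcript levels were compared between 2 yeast strains that differ in where the RNA-binding protein Npl3 is mutated, npl3-F245I in its second RNA recognition motif and npl3-F162Y in its first, both grown at 30 °C. The comparison takes every library of either allele at 30 °C, 3 of npl3-F245I and 3 of npl3-F162Y, which are 6 of the 24 libraries of the study. Npl3 is a nuclear SR-like protein that binds nascent mRNA. It takes part in transcription elongation, 3′ end formation, splicing and mRNA export, and it moves between nucleus and cytoplasm with the mRNA. RNA recognition motifs are small folds whose exposed aromatic residues stack on the bases of RNA, and a phenylalanine is replaced in each allele. The study, by its title, asks how Npl3 hands components of the messenger ribonucleoprotein (mRNP), picked up where the gene is transcribed, over to the transcript.

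All strains are W303 shuffle strains of Saccharomyces cerevisiae of mating type MATa and GAL+, with the auxotrophic alleles ade2-1, trp1-1 and ura3-1, further marker alleles of HIS3 and LEU2, and can1-100, in which NPL3 is supplied from pRS315, a low-copy centromeric plasmid with the LEU2 marker. The plasmid holds npl3-F245I, npl3-F162Y or, in the control strain, wild-type NPL3. Cultures grew in YPD, a rich glucose medium, at 30 °C to mid-log phase. In further groups of 3 libraries each, used here for a second look at the same pair of alleles, cultures of the same strains were moved to 37 °C for 1 hour before harvest. The remaining mutant, npl3-P196D-A197D, entered the fit of the spread and is not described. The labels do not say whether libraries of a group came from separate transformants or cultures. The p-values therefore rest on a spread between libraries of a group that may be technical. For the edgeR tests that spread was estimated over all 8 groups of the study and not from the libraries compared alone.

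The reference sequence around each mutated codon is shown because the 2 alleles differ from each other at these places. Both stretches are from the + strand of build R64, written 5′ to 3′, and capitals mark the codon that is changed to isoleucine (F245I, chrIV:1329485-1329547) or to tyrosine (F162Y, chrIV:1329236-1329298).
NPL3 around the F245I codon: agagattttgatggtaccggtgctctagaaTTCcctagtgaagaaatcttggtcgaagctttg
NPL3 around the F162Y codon: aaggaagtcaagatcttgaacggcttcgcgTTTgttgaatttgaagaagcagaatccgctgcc

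Libraries held 23.2 to 28.7 M assigned counts (M, counts in units of 1000000) in npl3-F245I (26.1 ± 2.77 M, SD, n = 3), 22.5 to 27.8 M in npl3-F162Y (24.4 ± 2.93 M, n = 3) and 24.0 to 33.4 M in NPL3 at 30 °C. Levels below are counts per 1000000 (CPM), with library sizes adjusted by TMM factors. Because they are not divided by gene length, they are compared between strains and not between genes. Within a group at 30 °C the log2 CPM of 2 libraries correlated across genes at 0.998 to 0.999, and no pair differed by as little as counting noise. The mating type of the labels matched the transcripts of the a-specific genes STE2 (534 ± 14.4 CPM in npl3-F245I and 526 ± 14.1 CPM in npl3-F162Y) and BAR1 (276 ± 7.39 and 299 ± 2.42 CPM). The alpha-specific pheromone genes MF(ALPHA)1 and MF(ALPHA)2 stayed at or below 3.49 CPM in every one of these 6 libraries. Levels of the remaining a-specific genes and of the alpha-specific STE3 and SAG1 are not given here. Against NPL3, all 7 a-specific genes were lower in npl3-F245I and 6 in npl3-F162Y, beside 33.3% and 38.6% of all genes. Of the 4 alpha-specific genes 3 were higher than in NPL3 in each mutant, beside 24.5% and 29.8%, and 1 was lower in npl3-F162Y.

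The transcript of the mutated gene itself was not at the same level in both strains. NPL3 had 210, 207 and 218 CPM in the npl3-F245I libraries, 254, 288 and 274 CPM in npl3-F162Y and 207, 206 and 198 CPM in NPL3. Every npl3-F245I library lay below every npl3-F162Y library and close to the NPL3 libraries. The difference was -0.36 on the log2 scale (SE 0.06), 1.28-fold lower in npl3-F245I, with an edgeR adjusted p of 6.27e-05. An exact two-sided permutation test of the 3 against 3 libraries gave p = 0.1, the smallest value that design allows. LEU2, the marker on the plasmid, moved the other way, with 317, 311 and 314 CPM in npl3-F245I, 251, 247 and 260 CPM in npl3-F162Y and 298, 283 and 285 CPM in NPL3 (log2 difference 0.31, SE 0.04). The strains also carry a marker allele of LEU2 of their own, and a gene count cannot separate its reads from those of the plasmid. The mutated residues are single codons, so gene counts cannot show which allele a library carries. Whether the NPL3 or LEU2 level bears on the differences below was not tested.

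Of the 6518 genes tested, 2199 (33.7%) differed between npl3-F245I and npl3-F162Y by edgeR's quasi-likelihood test at an adjusted p under 0.05. Of these, 1096 (16.8%) were higher in npl3-F245I and 1103 (16.9%) lower, and 692 were higher without the third npl3-F245I library. Every list count at 30 °C below is to be read beside these 2 shares of all genes. Most differences were small, with a median size of 0.23 on the log2 scale among the genes that passed. At least a 2-fold change was seen for 16 genes that were higher (0.245%) and 28 that were lower (0.43%), and a change of at least 1.5-fold for 47 (0.721%) and 147 (2.26%). The 3 CPM values of one strain lay entirely apart from those of the other for 3834 genes (58.8%), with npl3-F245I higher for 2045 (31.4%) and lower for 1789 (27.4%). Over all genes tested, the median log2 change was 0.01. Each strain was further from NPL3 than from the other mutant: the median size of the log2 change over all genes was 0.21 for npl3-F245I against NPL3, 0.28 for npl3-F162Y against NPL3 and 0.13 between the mutants. Against NPL3, 3764 genes (57.7%) passed in npl3-F245I and 4458 (68.4%) in npl3-F162Y, in comparisons that share the NPL3 libraries. The split into 1595 higher (24.5%) and 2169 lower (33.3%) for npl3-F245I was 2270 and 1301 with total counts as the only scaling, an alternative chosen after the data were seen, and that into 1942 (29.8%) and 2516 (38.6%) for npl3-F162Y was 2580 and 1651.

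**Figure D1:**
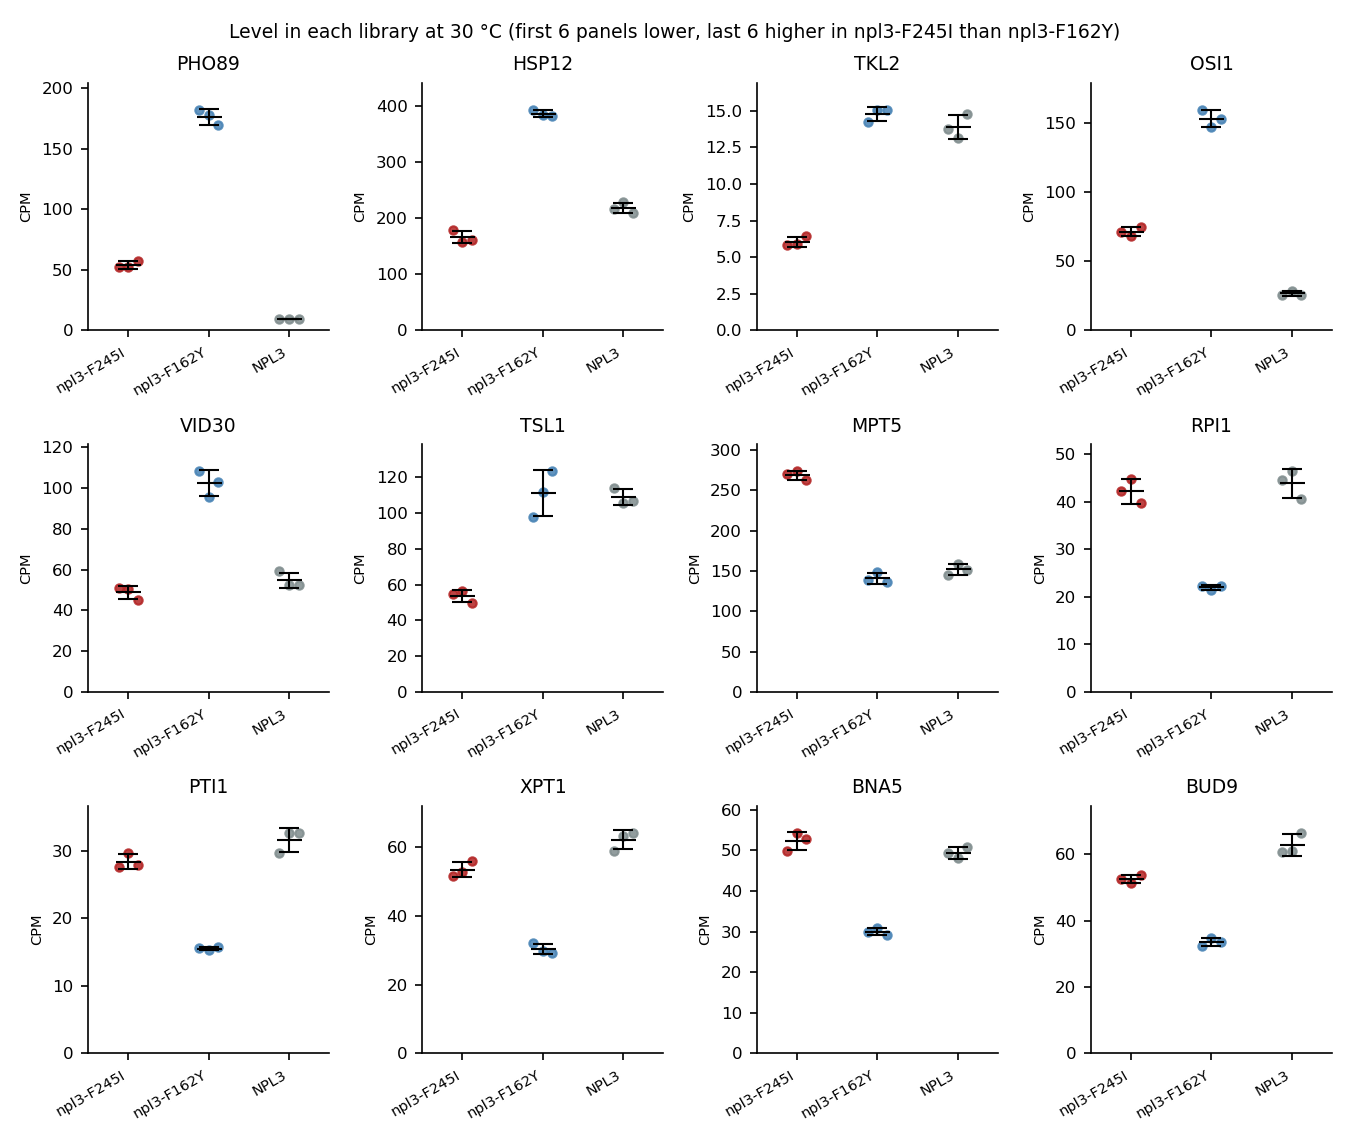
CPM of 12 of the 24 genes with the largest differences (each point is 1 library, the long bar is the mean and the short bars the SD, n = 3, every axis starts at 0). In the first 6 panels every npl3-F245I library lies below every npl3-F162Y library, as for PHO89 at 52.2 to 57.6 against 170 to 182 CPM, and in the last 6 every npl3-F245I library lies above, as for MPT5 at 262 to 274 against 136 to 149 CPM.

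Among named protein-coding genes that averaged at least 10 CPM, the largest fall was in PHO89, of the phosphate starvation response, and PHO11 and PHO12 of the same group were among the 12 largest. When phosphate is scarce, the factor Pho4, working with Pho2, turns on phosphatases, phosphate importers and polyphosphate enzymes. The cyclin and kinase Pho80 and Pho85 hold Pho4 inactive in phosphate-rich medium, and Pho81 inhibits them. Of the 28 genes of the list, 3 were higher in npl3-F245I than in npl3-F162Y and 14 lower, against 16.8% and 16.9% of all genes, and the median log2 change was -0.19. Both mutants had more of these transcripts than NPL3, with medians of 0.55 in npl3-F245I and 0.63 in npl3-F162Y on the log2 scale. The list took 0.607 ± 0.0117% of assigned counts in npl3-F245I, 0.775 ± 0.00828% in npl3-F162Y and 0.305 ± 0.00425% in NPL3 (SD, n = 3 each). In this sum npl3-F245I stood between npl3-F162Y and NPL3. The order does not hold for each gene, as 11 of the 28 did not pass between the mutants and 3 were higher in npl3-F245I.

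Pho4 binds CACGTG, and a variant CACGTT. Either one (both strands searched, overlaps merged) was found within the 300 bases before the start codon of 16 of the 28 genes and of 12 of the 14 that were lower, against 12.4% of 6007 protein-coding genes. Among all genes lower in npl3-F245I, 12.3% of 1081 held either one. A match is not a bound site. The stretches from 300 to 101 bases before the start codon of SPL2 and PHO5 are shown because both genes were among the strongest in the group. They are from the − strand of build R64 (SPL2, chrVIII:375201-375400 and PHO5, chrII:431052-431251), written 5′ to 3′ toward the gene, with CACGTG in capitals.
SPL2 promoter: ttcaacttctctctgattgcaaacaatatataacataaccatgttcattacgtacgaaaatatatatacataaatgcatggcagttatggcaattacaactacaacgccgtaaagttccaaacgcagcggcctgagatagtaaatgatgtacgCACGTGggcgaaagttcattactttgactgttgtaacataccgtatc
PHO5 promoter: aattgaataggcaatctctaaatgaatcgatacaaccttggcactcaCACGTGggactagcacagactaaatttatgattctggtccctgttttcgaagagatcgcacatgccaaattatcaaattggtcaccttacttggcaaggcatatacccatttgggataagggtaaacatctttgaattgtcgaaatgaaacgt
The whole 300-base window of SPL2 held 3 such sites, of which 1 lies in the stretch above, and that of PHO5 held 1. No match was found in the windows of PHO89 or GIT1.

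Among the importers, PHO89 (sodium-coupled, high affinity) had 52.2, 52.3 and 57.6 CPM in npl3-F245I, 182, 178 and 170 CPM in npl3-F162Y and 9.43, 9.39 and 9.47 CPM in NPL3. The difference between the mutants was -1.71 (SE 0.06) on the log2 scale, 3.27-fold lower in npl3-F245I, with an edgeR adjusted p of 5.56e-16. PHO84, the proton-coupled high-affinity importer, had 1174, 1195 and 1315 CPM in npl3-F245I, 1802, 1808 and 1728 CPM in npl3-F162Y and 64.05, 95.4 and 81.2 CPM in NPL3. Its groups did not overlap, yet its log2 change of -0.54 (SE 0.19) passed only narrowly (adjusted p = 0.0424) and did not pass when any 1 of the 6 libraries was left out (adjusted p from 0.0696 to 0.109). The low-affinity importer PHO87 went the other way and was 1.25-fold higher in npl3-F245I (134 ± 6.51 against 107 ± 1.74 CPM), while PHO90 had 118 ± 5.07 and 96.5 ± 2.26 CPM and did not pass (adjusted p = 0.0783). SPL2, which restrains low-affinity uptake, had 23.6, 25.9 and 26.1 CPM in npl3-F245I, 51.3, 49.8 and 51.5 CPM in npl3-F162Y and 2.46, 2.39 and 2.60 CPM in NPL3 (log2 change -1.01, SE 0.08). The vacuolar exporter PHO91 was 1.16-fold lower in npl3-F245I (161 ± 2.68 against 187 ± 11.3 CPM).

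The secreted acid phosphatases followed the same order. PHO5 had 404, 408 and 445 CPM in npl3-F245I, 795, 814 and 752 CPM in npl3-F162Y and 37.1, 31.9 and 30.7 CPM in NPL3, and was 1.88-fold lower in npl3-F245I (log2 change -0.91, SE 0.07). PHO11 averaged 39.5 ± 4.48 CPM in npl3-F245I and 91.6 ± 4.41 CPM in npl3-F162Y (2.32-fold lower). PHO12 averaged 66.7 ± 3.03 and 141 ± 4.93 CPM in the same strains (2.11-fold lower). PHO11 and PHO12 are near-identical copies, so how the counting split reads between them is uncertain. PHO3, an acid phosphatase that thiamine rather than phosphate regulates, had 726 ± 27.9 CPM in npl3-F245I and 679 ± 18.7 CPM in npl3-F162Y and did not pass.

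GIT1, an importer of glycerophosphodiesters that can serve as phosphate source, was 2.01-fold lower in npl3-F245I, with 48.3, 49.3 and 49.1 CPM against 98.6, 94.2 and 102 CPM in npl3-F162Y and 26.5, 26.2 and 26.4 CPM in NPL3. GDE1, which cleaves such compounds, was 1.27-fold lower (248 ± 3.26 against 315 ± 4.51 CPM). Of the vacuolar transporter chaperone complex, which makes polyphosphate, VTC3, VTC1 and VTC4 were lower by 1.38-, 1.33- and 1.20-fold in npl3-F245I, and VTC2 and VTC5 did not pass. The phosphatase PHM8 was 1.38-fold lower, at 123 ± 4.27 against 171 ± 6.58 CPM, and DDP1 1.19-fold lower.

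Of the 6 signalling genes, PHO80 alone passed, 1.25-fold higher in npl3-F245I with 30.5, 33.3 and 33.5 CPM against 25.0, 27.4 and 25.5 CPM. The activators PHO4 (85.7 ± 4.74 and 77.1 ± 4.53 CPM) and PHO2 (104 ± 3.91 and 97.8 ± 0.686 CPM), the kinase PHO85 (77.1 ± 0.374 and 77.7 ± 2.04 CPM), the inhibitor PHO81 (216 ± 1.66 and 222 ± 3.79 CPM) and PHO86 (195 ± 7.47 and 205 ± 1.67 CPM), which helps Pho84 leave the endoplasmic reticulum, did not pass. Of the polyphosphatases, PPX1 was 1.10-fold higher and PPN1 did not pass. The vacuolar alkaline phosphatase PHO8 had 253 ± 1.80 CPM in npl3-F245I and 248 ± 5.50 CPM in npl3-F162Y and did not pass.

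**Figure D2:**
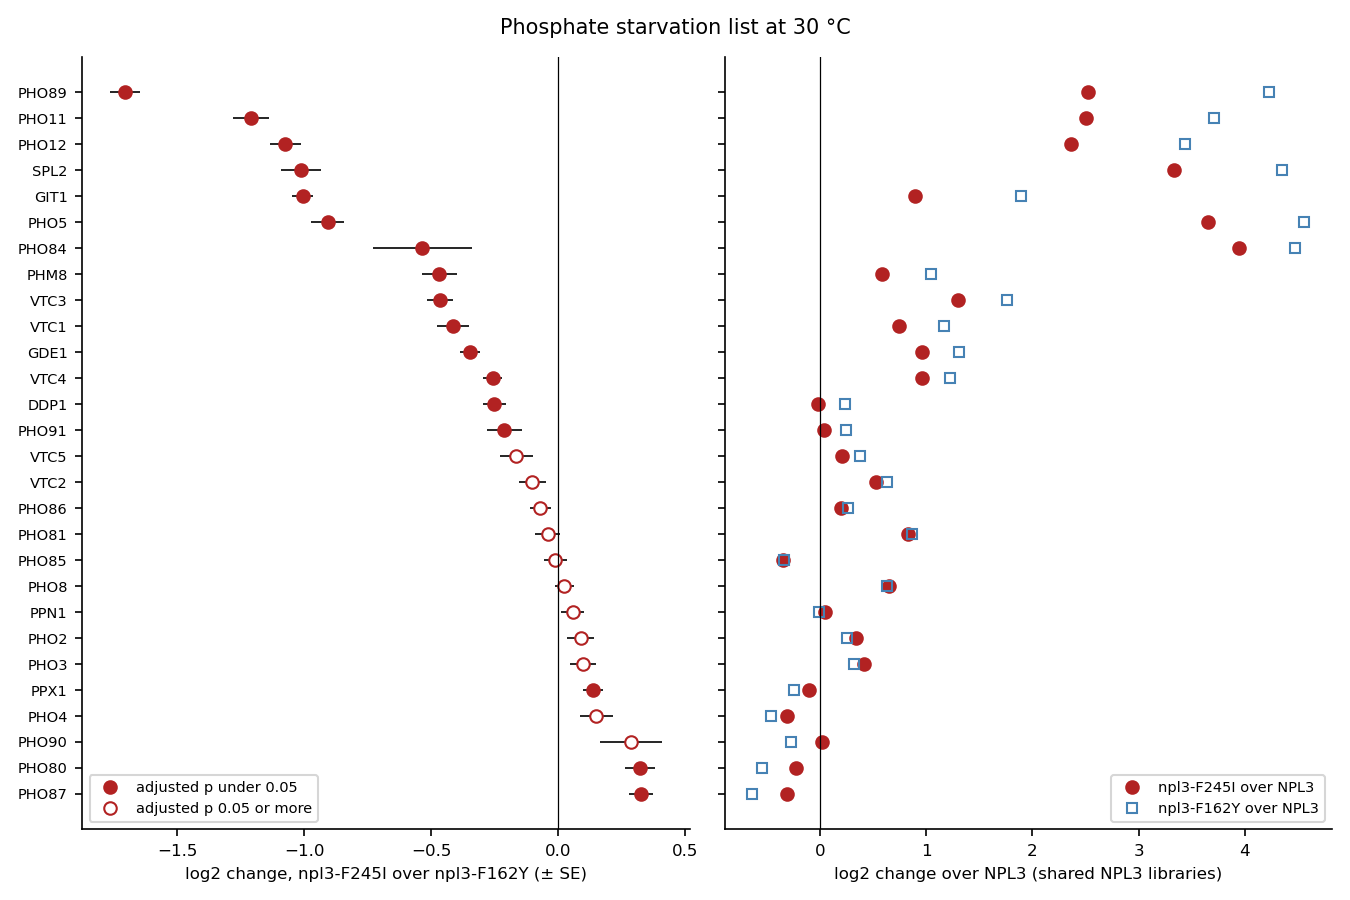
Left, log2 change of npl3-F245I over npl3-F162Y at 30 °C for the 28 phosphate genes (points with SE bars, filled where the adjusted p is under 0.05), from PHO89 at -1.71 to PHO87 at 0.33. Right, the log2 change of each mutant over the shared NPL3 libraries, where PHO89 lies at 2.52 in npl3-F245I and 4.23 in npl3-F162Y.

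Genes of the general stress response, which Msn2 and Msn4 switch on through the element AGGGG, were lower in npl3-F245I across most of their list. Of 56 genes 1 was higher and 43 were lower, with a median log2 change of -0.37. Their shared level differed from that of the phosphate genes in its relation to NPL3. General stress genes took 0.615 ± 0.0151% of assigned counts in npl3-F245I, 0.783 ± 0.0153% in npl3-F162Y and 0.769 ± 0.0331% in NPL3. In this sum npl3-F245I was the strain apart. The median log2 change against NPL3 was -0.38 in npl3-F245I and 0.08 in npl3-F162Y. Single genes moved both ways from NPL3. In npl3-F245I 10 of the 56 were higher and 35 lower than NPL3, against 24.5% and 33.3% of all genes. In npl3-F162Y 19 were higher and 14 lower, against 29.8% and 38.6% of all genes. All 4 roles in the list took part, with 9 of 14 chaperones and membrane proteins, 6 of 8 oxidative defence genes, 15 of 17 metabolic enzymes and 13 of 17 other genes lower.

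HSP12, a small membrane-protecting stress protein, had 178, 158 and 161 CPM in npl3-F245I, 393, 383 and 382 CPM in npl3-F162Y and 216, 228 and 209 CPM in NPL3. It was 2.33-fold lower in npl3-F245I (log2 change -1.22, SE 0.08, edgeR adjusted p = 1.87e-10) and lay below NPL3 in npl3-F245I and above it in npl3-F162Y. TKL2, the minor transketolase of the pentose phosphate pathway, had 5.81, 5.87 and 6.41 CPM in npl3-F245I, 14.2, 15.1 and 15.1 CPM in npl3-F162Y and 13.8, 13.1 and 14.8 CPM in NPL3 (2.44-fold lower). RTC3 had 18.2, 18.4 and 16.6 CPM in npl3-F245I, 36.5, 35.1 and 38.0 CPM in npl3-F162Y and 51.3, 49.6 and 45.5 CPM in NPL3 (2.06-fold lower). In none of these 3 genes did the mutants overlap.

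The 300 bases before the start codon held AGGGG on either strand in 45 of the 56 general stress genes, against 22.2% of 6007 protein-coding genes. Over the whole comparison the element stood in that window for 33.95% of 1081 genes that were lower in npl3-F245I and 13.5% of 1077 that were higher. The stretches from 300 to 101 bases before the start codon of HSP12 (chrVI:106956-107155) and TSL1 (chrXIII:70324-70523), both on the + strand of build R64, are shown as examples from stress and trehalose genes. Capitals mark AGGGG, or CCCCT where it is on the other strand.
HSP12 promoter: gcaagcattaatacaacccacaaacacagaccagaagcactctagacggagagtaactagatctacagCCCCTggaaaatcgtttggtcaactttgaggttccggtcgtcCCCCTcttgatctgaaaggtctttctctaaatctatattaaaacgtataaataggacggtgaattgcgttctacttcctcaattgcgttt
TSL1 promoter: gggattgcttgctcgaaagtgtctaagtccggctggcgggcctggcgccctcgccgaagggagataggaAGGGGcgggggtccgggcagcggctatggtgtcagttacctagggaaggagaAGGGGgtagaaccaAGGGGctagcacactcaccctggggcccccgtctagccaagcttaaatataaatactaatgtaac
The window of HSP12 held 2 such elements and that of TSL1 held 3, all within these stretches, while those of HXK1 and GPH1 held none.

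Trehalose and glycogen are the reserve carbohydrates of yeast. Of 21 genes for their synthesis, breakdown and regulation, 17 were lower in npl3-F245I and none was higher (median log2 change -0.34). The list holds 4 regulators, of which 3 were lower. Without the third npl3-F245I library the number lower was 9, and without the third npl3-F162Y library 11. TSL1, a regulatory subunit of trehalose synthase, had 54.8, 56.3 and 49.8 CPM in npl3-F245I, 97.7, 112 and 123 CPM in npl3-F162Y and 114, 106 and 107 CPM in NPL3 (2.07-fold lower, log2 change -1.05, SE 0.18). GPH1, which releases glucose from glycogen, had 77.3, 74.0 and 70.2 CPM in npl3-F245I, 145, 134 and 143 CPM in npl3-F162Y and 99.2, 102 and 92.7 CPM in NPL3 (1.91-fold lower). Transcripts for synthesis and for breakdown were thus lower together. GIP2, a subunit that directs the phosphatase Glc7 to glycogen, was 1.76-fold lower in npl3-F245I (23.1 ± 0.223 against 40.6 ± 0.625 CPM). The branching enzyme GLC3 averaged 32.1 ± 2.43 against 51.8 ± 3.15 CPM, a call that was lost without the third library of either strain (adjusted p = 0.0724 and 0.0583).

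HXK1, a hexokinase that is low in rich glucose, had 130, 130 and 115 CPM in npl3-F245I, 235, 246 and 261 CPM in npl3-F162Y and 446, 415 and 388 CPM in NPL3. It was 1.98-fold lower in npl3-F245I (log2 change -0.98, SE 0.16). The glucokinase GLK1 was 1.52-fold lower (219 ± 15.9 against 333 ± 6.45 CPM), with the caveat that the feature YCL042W overlaps it in sequence. Of 22 tested genes for hexose transport and phosphorylation, 1 was higher and 6 lower (median -0.19), among them the transporters HXT5 (20.5 ± 0.850 against 28.1 ± 0.752 CPM) and HXT7, whose near-identical copy HXT6 makes its count uncertain. When only the 6 libraries compared were fitted, 12 of the 22 were lower. Glycolysis and fermentation genes moved little, with 3 of 22 higher and 1 lower (median -0.02). Of these, alcohol dehydrogenase ADH4 was 1.41-fold higher in npl3-F245I (138 ± 5.24 against 97.3 ± 1.89 CPM).

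Chaperone genes of the heat shock factor Hsf1 were lower in 18 of 33 cases and higher in 3 (median -0.20). The number lower was 11 without the third npl3-F162Y library. HSP42, a small chaperone that sorts aggregates, averaged 93.2 ± 9.18 CPM in npl3-F245I and 166 ± 11.8 CPM in npl3-F162Y (1.78-fold lower). HSP82, an Hsp90, had 528, 502 and 461 CPM in npl3-F245I, 766, 777 and 890 CPM in npl3-F162Y and 826, 713 and 708 CPM in NPL3 (1.63-fold lower). CUR1 and BTN2, which sort misfolded proteins, were each 1.63-fold lower, and the BTN2 call was lost without some single libraries. Of 34 proteasome genes 1 was higher and 9 lower (median -0.05), the largest being RPN5, 1.18-fold lower. Leaving out the first npl3-F245I or the third npl3-F162Y library left 5 lower.

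**Figure D3:**
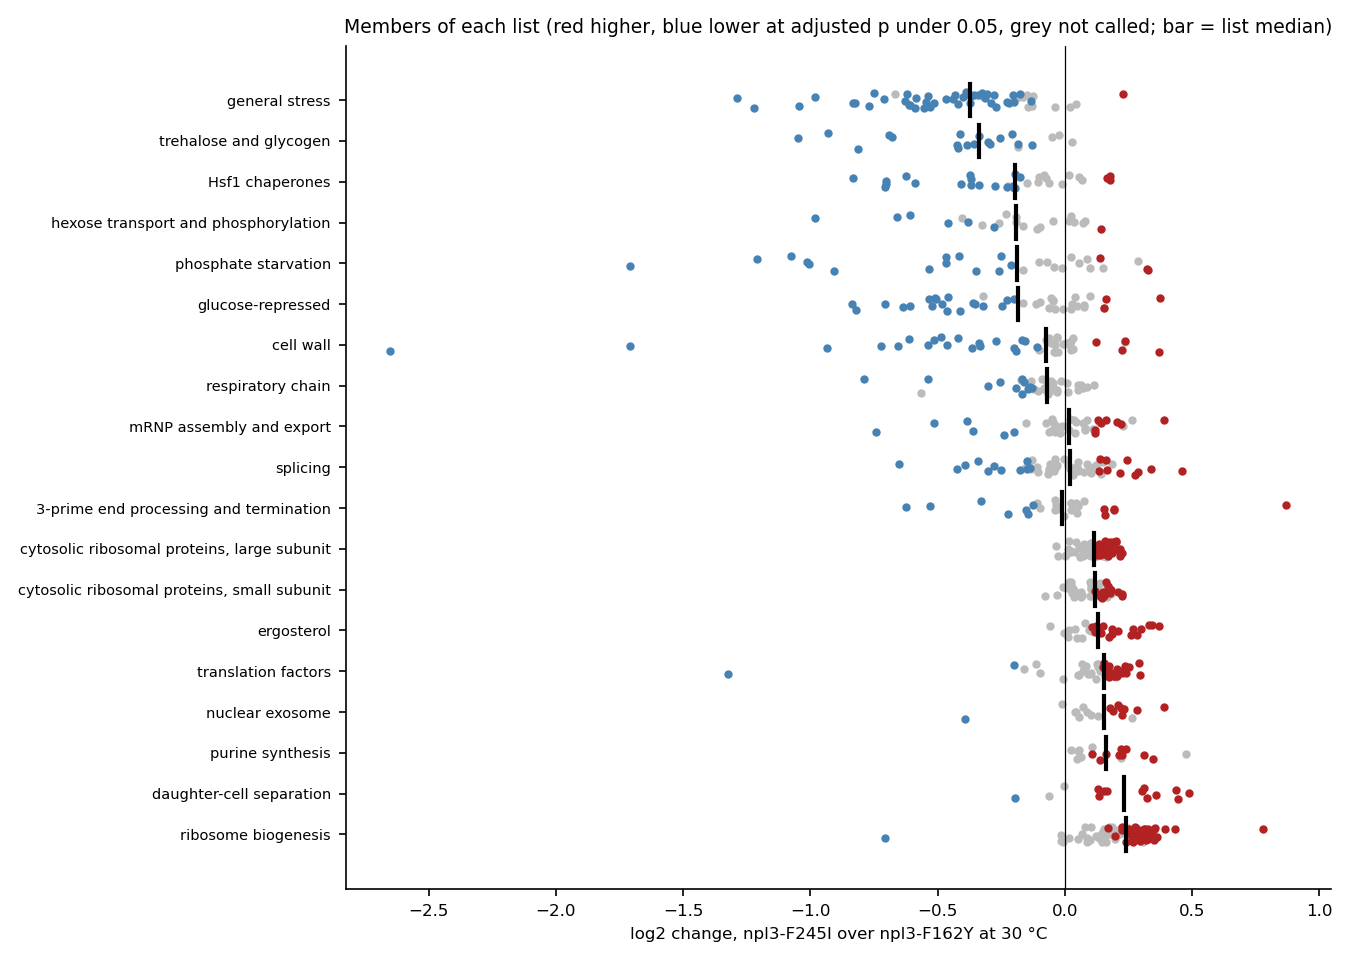
Log2 change of npl3-F245I over npl3-F162Y at 30 °C for every tested member of 19 gene lists (each point is a gene, coloured where the adjusted p is under 0.05, black bars are list medians). Stress, reserve carbohydrate and chaperone lists have medians from -0.37 to -0.20, and ribosome biogenesis lies at the other end with 0.24.

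Genes that glucose represses were lower in 19 of 40 cases and higher in 3 (median -0.18). In both mutants these genes exceeded NPL3, with medians of 0.50 in npl3-F245I and 0.73 in npl3-F162Y. The cytosolic malate dehydrogenase MDH2 had 56.8, 60.1 and 52.9 CPM in npl3-F245I, 100, 97.2 and 102 CPM in npl3-F162Y and 66.7, 52.7 and 54.9 CPM in NPL3 (1.77-fold lower). ADR1, an activator of genes for ethanol and fatty acid use, was 1.55-fold lower (119 ± 6.75 against 185 ± 1.10 CPM), IDP2, a cytosolic isocitrate dehydrogenase, 1.63-fold, and SFC1, a mitochondrial succinate and fumarate carrier, 1.78-fold. Respiratory chain genes were lower in 11 of 40 cases with none higher (median -0.07), or 25 lower and 3 higher when only the 6 libraries compared were fitted. CYC7, the minor cytochrome c, led them at 38.1 ± 1.93 against 65.7 ± 2.75 CPM. Of 18 genes of the TCA cycle 1 was higher and 4 were lower (median -0.09), against 16.8% and 16.9% of all genes. CIT1, the citrate synthase, was 1.28-fold lower. In the fit of those 6 libraries alone 11 of the 18 TCA cycle genes were lower, and in that of the 12 libraries grown at 30 °C 10.

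In the cell wall list 4 of 43 genes were higher in npl3-F245I and 20 lower (median -0.08), and 13 of the 18 mannoproteins were lower with none higher (median -0.33). DAN1 and TIR1 belong to a family of mannoproteins that yeast makes when oxygen is low. DAN1 had 1.06, 1.13 and 0.797 CPM in npl3-F245I, 6.79, 5.22 and 6.71 CPM in npl3-F162Y and 0.266, 0.414 and 0.310 CPM in NPL3, and TIR1 had 4.57, 4.08 and 3.41 CPM in npl3-F245I, 12.2, 13.5 and 13.6 CPM in npl3-F162Y and 2.73, 3.45 and 3.38 CPM in NPL3. Both were lower in npl3-F245I (log2 changes -2.65 and -1.71) and their groups did not overlap. CWP1, a mannoprotein of the normal wall, averaged 147 ± 2.57 CPM in npl3-F245I and 243 ± 9.53 CPM in npl3-F162Y, and BAG7, a GTPase-activating protein for Rho1, 11.7 ± 0.493 and 22.5 ± 0.419 CPM. ANB1, the form of translation factor eIF5A made when oxygen is low, was also lower (3.66 ± 0.844 against 9.13 ± 0.927 CPM).

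Meiotic and sporulation genes, which are low in growing haploid cells, were lower in 10 of 41 cases and higher in 4 (median -0.11). SSP2, needed for the spore wall, had 22.6, 21.4 and 22.9 CPM in npl3-F245I, 46.7, 46.2 and 42.5 CPM in npl3-F162Y and 11.0, 10.6 and 10.7 CPM in NPL3 (2.03-fold lower). RIM4, an RNA-binding repressor of meiotic translation, averaged 75.3 ± 5.02 against 136 ± 1.93 CPM. Of 27 tested genes of nitrogen catabolite repression 3 were higher and 7 lower, against 16.8% and 16.9% of all genes. The median was -0.02, from -0.04 to 0.01 over the alternatives. PUT1, which starts proline breakdown, was 1.66-fold lower (92.9 ± 4.72 against 154 ± 5.69 CPM), and the ammonium permease MEP2 1.30-fold higher. In the iron regulon 4 of 33 were higher and 9 lower (median -0.08), with the siderophore importer SIT1 at 49.2 ± 0.743 against 73.1 ± 3.21 CPM and LSO1 at 2.00 ± 0.232 against 4.73 ± 0.362 CPM. The number higher in that list was 2 without the second or the third npl3-F245I or the third npl3-F162Y library.

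On the other side stood the growth-related genes. Of 97 ribosome biogenesis genes, whose products process and assemble the ribosomal RNA, 37 were higher in npl3-F245I and 1 was lower, and the median log2 change was 0.24. That count rested on single libraries: it was 8 without the third npl3-F245I library and 19, 24 and 11 without the first, the second and the third npl3-F162Y libraries. It was 84 when the 12 libraries grown at 30 °C were fitted alone, a fit that leaves out all libraries at 37 °C. In NPL3 at 37 °C this list took 2.30, 1.82 and 1.49% of counts. Whether that spread bears on the count was not tested. At 30 °C the list took 2.38, 2.32 and 2.50% of counts in npl3-F245I, 2.07 ± 0.0474% in npl3-F162Y and 2.30 ± 0.0937% in NPL3, so npl3-F162Y was the strain apart. Against NPL3 the medians were -0.05 in npl3-F245I and -0.29 in npl3-F162Y.

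DBP2, a DEAD-box RNA helicase, rose most, with 500, 497 and 593 CPM in npl3-F245I, 323, 326 and 277 CPM in npl3-F162Y and 553, 645 and 618 CPM in NPL3 (1.72-fold higher, log2 change 0.78, SE 0.22, edgeR adjusted p = 0.00998). RPA135, a large subunit of RNA polymerase I, averaged 599 ± 37.6 against 443 ± 24.0 CPM, and the ribosomal GTPase NOG1 583 ± 45.0 against 444 ± 18.4 CPM, and both calls were lost without some single libraries. NOP16, another large-subunit factor, was the exception at 288, 281 and 291 CPM in npl3-F245I, 481, 466 and 458 CPM in npl3-F162Y and 247, 243 and 231 CPM in NPL3 (1.63-fold lower). A pair of short motifs marks promoters of this group, GATGAG and AAAATTT, with both strands searched. They stood within 300 bases before the start codon of 89 and 91 of the 97 genes, against 19.1% and 24.4% of 6007 protein-coding genes. Among all genes higher in npl3-F245I, those of this list included, 24.1% and 35.2% of 1077 held them. Among the 37 with a window that were at least 1.5-fold higher, 18.9% and 10.8% did. The stretch from 300 to 101 bases before the start codon of DBP2 (chrXIV:413339-413538, + strand, build R64) shows them in capitals, CTCATC being GATGAG on the other strand.
DBP2 promoter: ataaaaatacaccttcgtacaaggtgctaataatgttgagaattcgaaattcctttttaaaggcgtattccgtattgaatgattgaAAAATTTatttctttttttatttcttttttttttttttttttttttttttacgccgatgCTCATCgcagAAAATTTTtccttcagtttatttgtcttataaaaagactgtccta

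Ribosomal protein genes rose slightly. Of 82 large-subunit genes 31 were higher and none lower (median 0.11), and of 57 small-subunit genes 19 were higher and none lower (median 0.12). The large-subunit genes took 8.01% of counts in npl3-F245I, 7.51% in npl3-F162Y and 9.31% in NPL3, so both mutants lay below NPL3. These calls also rested on single libraries, with 12 large-subunit and 7 small-subunit genes higher without the third npl3-F245I library, 18 and 8 without the first and 12 and 7 without the third npl3-F162Y library. When the 6 libraries compared were fitted alone, 67 and 42 were higher. RPS12 had 2219, 2227 and 2243 CPM in npl3-F245I, 1927, 1953 and 1839 CPM in npl3-F162Y and 2778, 2656 and 2858 CPM in NPL3, and ASC1, a ribosome-bound signalling protein, averaged 1769 ± 32.8 CPM in npl3-F245I and 1514 ± 32.6 CPM in npl3-F162Y. RPL26A was 1.17-fold higher (684 ± 7.39 against 585 ± 12.8 CPM).

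Translation factors were higher in 21 of 43 cases and lower in 2 (median 0.15), and 17 of the 29 initiation factors were higher. The initiation factor subunit GCN3 averaged 156 ± 5.30 against 128 ± 3.01 CPM, and TIF6, which keeps ribosomal subunits apart, 385 ± 14.0 against 314 ± 8.37 CPM. In the nuclear exosome, which degrades and trims nuclear RNA, 8 of 18 genes were higher and 1 lower (median 0.15), or 4 higher without the third npl3-F245I library. Its helicase MTR4 had 195, 195 and 224 CPM in npl3-F245I, 156, 161 and 151 CPM in npl3-F162Y and 225, 239 and 239 CPM in NPL3, and its cofactor MPP6 was 1.31-fold lower (67.1 ± 0.618 against 88.0 ± 1.59 CPM). Purine synthesis genes were higher in 9 of 17 cases with none lower (median 0.16), or 5 without the third library of either strain. The salvage enzyme HPT1 averaged 616 ± 9.93 against 485 ± 16.7 CPM, and APT1 196.7 ± 4.31 against 159 ± 4.89 CPM.

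Amino acid synthesis genes were higher in 22 of 57 cases and lower in 2 (median 0.09), with ARG8 of arginine synthesis 1.23-fold and HIS7 of histidine synthesis 1.20-fold higher. Sulfate and methionine genes were higher in 7 of 29 cases and lower in 3 (median 0.06), against 16.8% and 16.9% of all genes. Among them the lyase STR3 was 1.33-fold higher and the regulator MET32 1.40-fold lower (22.9 ± 2.07 against 32.0 ± 1.67 CPM). Of 22 serine, glycine and threonine genes 6 were higher and 6 lower (median 0.03), or 3 higher without the second or the third npl3-F245I library, without any 1 of the npl3-F162Y libraries or with no filter on low counts. The serine deaminase CHA1 was lowest in npl3-F245I, with 51.6, 55.7 and 56.7 CPM against 72.9, 70.1 and 73.2 CPM in npl3-F162Y and 150, 155 and 166 CPM in NPL3. Of 26 genes for vitamins B6 and B1 none was higher and 6 were lower (median -0.05), against 16.8% and 16.9% of all genes. SNZ1, of pyridoxine synthesis, had 395, 403 and 405 CPM in npl3-F245I, 507, 468 and 482 CPM in npl3-F162Y and 40.0, 38.2 and 39.6 CPM in NPL3, and the thiamine genes THI4, THI20 and THI2 were lower by 1.24-, 1.15- and 1.18-fold. SNZ2 and SNZ3 were also lower, as near-identical copies whose reads may be split.

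Ergosterol genes, for the sterol of yeast membranes, were higher in 17 of 28 cases with none lower (median 0.13), all 17 among the 25 synthesis genes. The synthase ERG13 had 814, 821 and 847 CPM in npl3-F245I, 648, 655 and 654 CPM in npl3-F162Y and 712, 776 and 802 CPM in NPL3, and CYB5, which feeds electrons to these enzymes, was 1.29-fold higher. Fatty acid synthesis genes were higher in 5 of 11 cases and lower in 1 (median 0.12), or 2 higher without the third npl3-F245I and 3 without the first or the third npl3-F162Y library. OLE1, the only fatty acid desaturase of yeast, had 1201, 1208 and 1352 CPM in npl3-F245I, 831, 853 and 757 CPM in npl3-F162Y and 1372, 1412 and 1379 CPM in NPL3 (1.54-fold higher, log2 change 0.62, SE 0.07). Its membrane-bound activator MGA2 was 1.32-fold higher (151 ± 5.84 against 114 ± 2.81 CPM).

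Genes by which a daughter cell separates from its mother were higher in 11 of 14 cases and lower in 1 (median 0.23). AMN1, which acts at the exit from mitosis, had 234, 232 and 244 CPM in npl3-F245I, 169, 175 and 162.4 CPM in npl3-F162Y and 386, 421 and 411 CPM in NPL3 (1.40-fold higher). The glucanase DSE4 averaged 380 ± 9.56 against 297 ± 3.21 CPM, DSE2 203 ± 18.9 against 150 ± 11.0 CPM and SUN4 214 ± 7.54 against 157 ± 2.59 CPM. Both mutants lay below NPL3, with list medians of -0.47 in npl3-F245I and -0.67 in npl3-F162Y. Of 24 cell cycle genes 7 were higher and 2 lower (median 0.05). CLN3, the cyclin that starts the cycle, had 130, 131 and 132 CPM in npl3-F245I, 80.7, 87.8 and 87.1 CPM in npl3-F162Y and 180, 182 and 177 CPM in NPL3 (1.54-fold higher). CLN1, another G1 cyclin, was 1.25-fold higher. Of 11 histone genes CSE4, the centromeric variant, passed at 1.22-fold higher (median of the list 0.07).

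**Figure D4:**
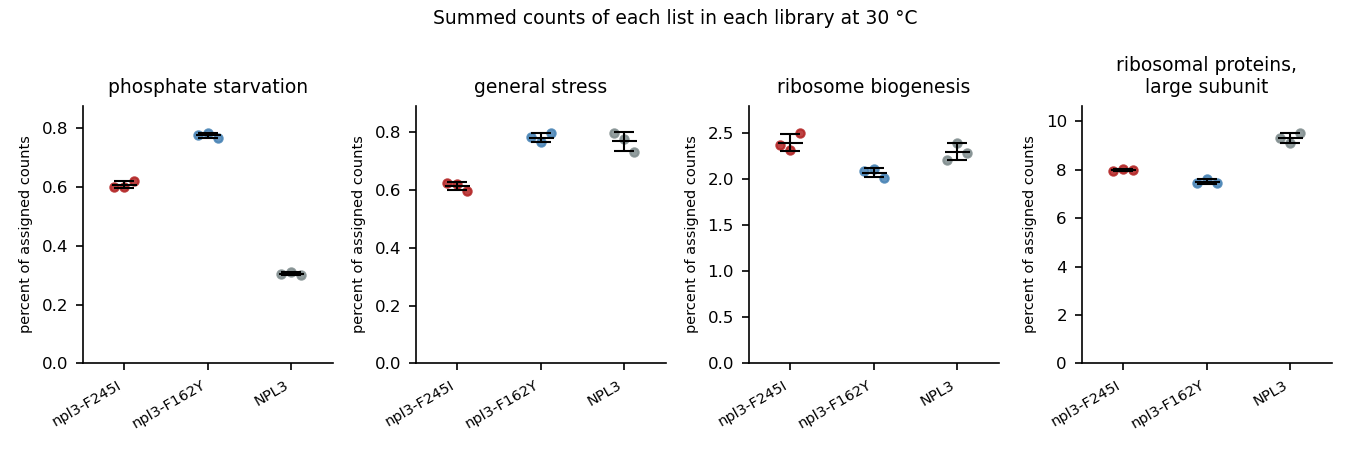
Percent of all assigned counts taken by 4 gene lists in each library at 30 °C (points, with the mean and SD, n = 3, axes start at 0). General stress genes are lowest in npl3-F245I at 0.615%, ribosome biogenesis genes lowest in npl3-F162Y at 2.07%, and phosphate genes stand at 0.607% in npl3-F245I between 0.775% in npl3-F162Y and 0.305% in NPL3.

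Among the largest rises outside these groups, BSC1 had 18.1, 18.3 and 20.3 CPM in npl3-F245I, 7.78, 7.89 and 6.71 CPM in npl3-F162Y and 5.20, 6.95 and 4.15 CPM in NPL3. It was 2.53-fold higher (log2 change 1.34, SE 0.39), and without the third npl3-F162Y library its adjusted p was 0.0517. Its neighbour PRM7, on the same strand of chromosome IV and 519 bases away, was 1.90-fold higher (44.8 ± 4.00 against 23.5 ± 1.58 CPM). MPT5, a Pumilio-family protein that binds mRNA 3′ ends and represses them, had 270, 274 and 262 CPM in npl3-F245I, 138, 149 and 136 CPM in npl3-F162Y and 145, 159 and 152 CPM in NPL3 (1.91-fold higher, log2 change 0.93, SE 0.05). For MPT5 npl3-F245I was the strain apart from NPL3. FLO11, a cell-surface flocculin, was 1.67-fold higher (22.7, 22.9 and 23.8 CPM against 13.4, 13.8 and 14.4 CPM, with 17.5, 17.3 and 16.9 CPM in NPL3), and ISF1 1.65-fold higher.

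For RPI1, BNA5, XPT1 and BUD9 npl3-F162Y was the strain furthest from NPL3. RPI1, a transcriptional regulator, had 42.2, 44.8 and 39.7 CPM in npl3-F245I, 22.2, 21.4 and 22.4 CPM in npl3-F162Y and 44.6, 46.5 and 40.6 CPM in NPL3 (1.92-fold higher). BNA5, an enzyme of NAD synthesis, averaged 52.4 ± 2.27 CPM in npl3-F245I, 30.0 ± 0.897 CPM in npl3-F162Y and 49.4 CPM in NPL3. XPT1, for xanthine salvage, averaged 53.3 ± 2.14, 30.4 ± 1.55 and 62.0 CPM in the same order of strains, and the bud-site protein BUD9 52.6 ± 1.14, 33.6 ± 1.23 and 62.7 CPM. EFM3, a methyltransferase of elongation factor 2, was 1.63-fold higher (14.8 ± 1.18 against 9.12 ± 0.0835 CPM), and both mutants lay below NPL3 at 24.1 CPM.

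Of the falls not yet described, OSI1 had 70.8, 68.5 and 75.0 CPM in npl3-F245I, 160, 147 and 152 CPM in npl3-F162Y and 25.6, 28.8 and 25.8 CPM in NPL3 (2.14-fold lower). VID30, a subunit of the ubiquitin ligase that degrades gluconeogenic enzymes, had 51.0, 50.6 and 45.2 CPM in npl3-F245I, 108, 95.8 and 103 CPM in npl3-F162Y and 59.2, 52.4 and 52.7 CPM in NPL3 (2.10-fold lower). STB2 was 2.19-fold lower (17.0 ± 1.80 against 37.2 ± 2.52 CPM) and RGI1, a gene induced in respiratory growth, 2.02-fold lower (14.3 ± 1.18 against 28.8 ± 1.44 CPM). Their NPL3 libraries lay between 12.8 and 15.5 CPM, close to npl3-F245I.

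In the mRNP assembly and export list 8 of 41 genes were higher and 6 lower, shares near the 16.8% and 16.9% of all genes. Its median of 0.02 ranged from -0.01 to 0.03 over the alternatives, so the list as a whole had no direction. The export receptor MEX67 had 220, 221 and 230 CPM in npl3-F245I and 205, 206 and 208 CPM in npl3-F162Y (1.08-fold higher, adjusted p of 0.0655 without the third npl3-F245I library), the helicase SUB2 564 ± 14.7 and 515 ± 11.8 CPM, and the export helicase DBP5 283 ± 5.29 and 257 ± 4.07 CPM. YRA1, an export adaptor, was 1.15-fold lower. HPR1, TGS1, YRA2, PUB1 and MTR4 were the remaining rises, and CDC31 (72.5 ± 1.07 against 121 ± 3.13 CPM), MLP1 (179 ± 5.83 against 255 ± 4.93 CPM), MFT1 and SUS1 fell beside NPL3 and YRA1. The SR-like relatives GBP2 (312 ± 9.15 and 304 ± 5.73 CPM) and HRB1 (223 ± 6.20 and 224 ± 4.08 CPM), the Npl3 kinase SKY1 (113 ± 4.76 and 119 ± 4.71 CPM), the import receptor MTR10 (96.9 ± 2.46 and 92.3 ± 1.20 CPM) and the methyltransferase HMT1 (279 ± 11.8 and 239 ± 0.970 CPM) did not pass. The number higher was 4 or 5 without the third npl3-F245I or the first or the third npl3-F162Y library.

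In 3′ end processing and termination 5 of 26 genes were higher and 7 lower (median -0.01), against 16.8% and 16.9% of all genes. The largest changes went both ways. PTI1, a subunit of the cleavage and polyadenylation factor, had 27.6, 29.6 and 27.8 CPM in npl3-F245I, 15.6, 15.3 and 15.7 CPM in npl3-F162Y and 29.6, 32.6 and 32.7 CPM in NPL3 (1.83-fold higher). The phosphatase subunit GLC7 of the same factor had 409, 420 and 392 CPM in npl3-F245I, 640, 633 and 611 CPM in npl3-F162Y and 405, 391 and 385 CPM in NPL3 (1.54-fold lower), and RNA14, of cleavage factor IA, 132, 138 and 138 CPM against 198, 195 and 197.2 CPM, with 143, 144 and 134 CPM in NPL3 (1.45-fold lower). In all 3 genes npl3-F245I was close to NPL3 and npl3-F162Y apart from it. The numbers were 4 lower without the first or the second npl3-F245I library and 3 higher without the third npl3-F162Y library.

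Splicing genes were higher in 10 of 55 cases and lower in 11, again near the 16.8% and 16.9% of all genes, and the median of 0.02 ranged from -0.01 to 0.05 over the alternatives. Of them 4 or 5 were higher without the third npl3-F245I or the first or the third npl3-F162Y library. PRP3, of the U4/U6 particle, had 62.2, 60.2 and 61.8 CPM in npl3-F245I and 97.2, 95.8 and 96.2 CPM in npl3-F162Y, and CUS2, a U2 assembly factor, was 1.38-fold higher. Intron-containing genes other than ribosomal protein genes were higher in 26 of 180 cases and lower in 32 (median -0.01), also near those shares of all genes, and 14 to 17 were higher without the second or the third npl3-F245I or the first npl3-F162Y library. UBC8, a ubiquitin-conjugating enzyme, was 1.91-fold lower (53.8 ± 2.92 against 103 ± 3.83 CPM). Of 31 genes for RNA polymerase II or its elongation factors 5 were higher and 7 lower (median 0.04), against 16.8% and 16.9% of all genes. CTK1, which phosphorylates the polymerase tail, was 1.31-fold lower. The number higher was 1 without the third npl3-F245I and 3 without the first npl3-F162Y library, and the number lower 4 without the first npl3-F245I library.

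Of 76 snoRNA features tested 4 were higher and 1 lower (median 0.07), in libraries made with an mRNA kit. Without the second npl3-F245I or the first npl3-F162Y library 2 were higher and 2 lower, at a mean of at least 10 CPM 1 was higher, and the median ranged from -0.02 to 0.08. SNR76, which guides methylation of ribosomal RNA, had 13.2, 12.4 and 11.3 CPM in npl3-F245I, 4.77, 4.68 and 5.27 CPM in npl3-F162Y and 4.93, 4.93 and 5.97 CPM in NPL3 (2.51-fold higher). Of 47 retrotransposon features tested 10 were higher and 2 lower (median 0.22). The Ty3 features YIL082W-A (105 ± 2.28 against 59.6 ± 2.44 CPM) and YGR109W-B (65.0 ± 1.40 against 34.7 ± 1.22 CPM) were higher in npl3-F245I. They are near-identical copies whose reads may be split. A further near-identical copy, YGR109W-A, overlaps YGR109W-B and is not described. Of 25 mating genes 3 were higher and 4 lower (median 0.02), against 16.8% and 16.9% of all genes. The 4 lower were among the 7 a-specific genes. Of the 4 alpha-specific genes 2 were higher and none lower. The a-specific pheromone gene MFA1 had 72.5, 73.6 and 75.2 CPM in npl3-F245I, 110, 115 and 113 CPM in npl3-F162Y and 147, 143 and 146 CPM in NPL3. Of 6 strain marker genes, CAN1 was higher and TRP1 lower beside LEU2 (median 0.09).

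Libraries of the same 2 alleles kept at 37 °C for 1 hour gave a second measure of the pair. The contrast at 30 °C leaves them out. The filter, the scaling and the estimate of the spread were nevertheless shared by all 24 libraries. At 37 °C 2490 genes (38.2%) differed, 1208 (18.5%) higher and 1282 (19.7%) lower in npl3-F245I, or 1586 and 1067 with total counts as the only scaling. Every list count at 37 °C below is to be read beside the 18.5% and 19.7% of all genes. The second library of each group at 37 °C carries a sample number of another series than the rest, and without these 4 libraries 2361 genes differed. Of the genes that passed at 30 °C, 1260 also passed at 37 °C (57.3% of the calls at 30 °C and 50.6% of those at 37 °C), and 1204 of these, 95.6%, had the same direction. All 24 of the largest rises and falls at 30 °C kept their sign at 37 °C, and 19 passed there. PHO89 had 21.0, 22.5 and 20.2 CPM in npl3-F245I and 54.7, 53.2 and 55.2 CPM in npl3-F162Y at 37 °C (log2 change -1.35), and MPT5 was higher by 0.77. In the general stress list 2 were higher and 34 lower at 37 °C (median -0.31), and in the phosphate list 6 and 14 (median -0.14).

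The difference between the alleles itself differed between temperatures for 825 genes (12.7%) in the test of that interaction, 435 (6.67%) with a higher and 390 (5.98%) with a lower log2 change at 37 °C than at 30 °C. That number and its split depended on the fit. It was 541 without the third npl3-F162Y library at 30 °C, and with total counts as the only scaling it was 768 higher and 233 lower. It was 1259 with a replicate block within each temperature and 987 when those 4 second libraries at 37 °C were left out. NPL3 reversed, with 346, 338 and 341 CPM in npl3-F245I against 252, 280 and 232 CPM in npl3-F162Y at 37 °C (log2 change 0.42 at 37 °C and -0.36 at 30 °C). LEU2 reversed the other way, with 166, 169 and 160 CPM against 211, 226 and 206 CPM (log2 change -0.37 at 37 °C and 0.31 at 30 °C).

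**Figure D5:**
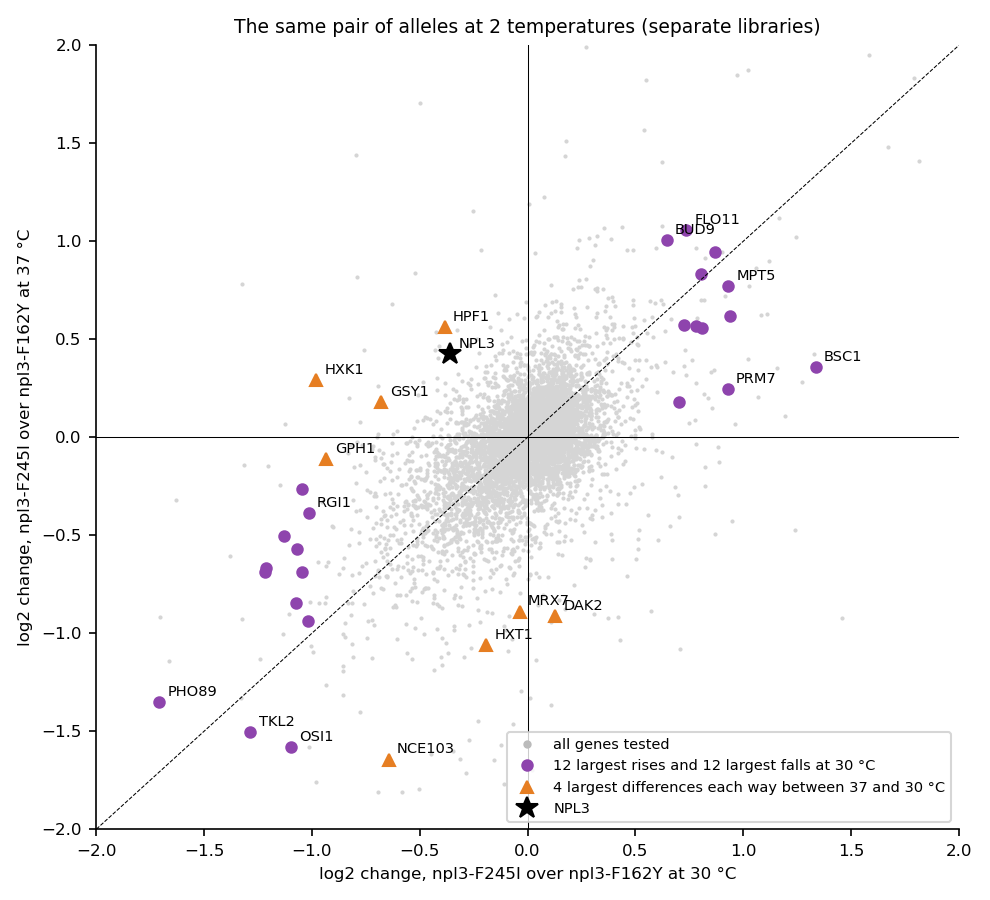
Log2 change of npl3-F245I over npl3-F162Y at 37 °C (vertical) against the same at 30 °C (horizontal), from separate libraries (each grey point is a gene, 9 genes lie outside the axes, the dashed line marks equal change). The 24 genes with the largest changes at 30 °C keep their sign, whereas NPL3 lies at 0.42 at 37 °C and at -0.36 at 30 °C.

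Reserve carbohydrate genes lost most of their difference at 37 °C. There 2 of 21 were higher and 5 lower (median -0.01), against 18.5% and 19.7% of all genes. By the interaction test 8 had a higher log2 change at 37 °C and 1 a lower one, against 6.67% and 5.98% of all genes. Those 2 shares also stand beside the interaction counts of the lists below. The 8 became 5 without the third npl3-F245I library of either temperature, the third npl3-F162Y library of either temperature or the first npl3-F162Y library at 37 °C. HXK1 had 863, 885 and 837 CPM in npl3-F245I and 650, 761 and 700 CPM in npl3-F162Y at 37 °C, a log2 change of 0.29 that did not pass, and its interaction was 1.27. GPH1 and GSY1, a glycogen synthase, had interactions of 0.82 and 0.86, and the mannoprotein gene HPF1, which has a near-identical copy in CSS1, one of 0.95. NCE103, the carbonic anhydrase, widened its difference, with 138, 122 and 164 CPM in npl3-F245I and 389, 440 and 493 CPM in npl3-F162Y at 37 °C (log2 change -1.65, against -0.64 at 30 °C). HXT1 (-1.06 at 37 °C), DAK2 (-0.91) and MRX7 (-0.89) fell in npl3-F245I at 37 °C, where at 30 °C their log2 changes were -0.19, 0.13 and -0.04 and did not pass.

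Ribosomal protein genes turned round. At 37 °C none of 82 large-subunit genes was higher and 29 were lower in npl3-F245I (median -0.11), and of 57 small-subunit genes 1 was higher and 20 lower (median -0.10). The interaction was negative for 37 of the large-subunit and 28 of the small-subunit genes, and these numbers fell to as few as 17 and 13 without 1 library and to 20 and 14 with total counts as the only scaling. They were 63 and 48 with a replicate block within each temperature and 67 and 50 when the 4 groups of these alleles were fitted alone, and DESeq2 gave 58 for the large subunit. The medians kept their sign at each temperature in every fit, from 0.10 to 0.13 for large-subunit genes at 30 °C and from -0.14 to -0.08 at 37 °C. Ribosome biogenesis genes were higher in 1 of 97 cases and lower in 4 at 37 °C (median -0.04), or 5 and 18 when only the 2 groups compared at 37 °C were fitted. Their interaction was negative for 7 and positive for none. The 7 depended on the fit and became 4 in some fits without 1 library. It was 16 with a replicate block within each temperature, 21 with DESeq2 and 78 when the 4 groups of these alleles were fitted alone.

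Daughter-cell separation genes differed more at 37 °C, with 12 of 14 higher and 1 lower (median 0.62) and 10 interactions, all positive. DSE4 had 257, 258 and 259 CPM in npl3-F245I and 122, 127 and 121 CPM in npl3-F162Y there (log2 change 1.07, against 0.36 at 30 °C). Cell cycle genes were higher in 19 of 24 cases at 37 °C with none lower (median 0.22). OLE1 had 1385, 1283 and 1391 CPM in npl3-F245I and 513, 515 and 504 CPM in npl3-F162Y at 37 °C, a log2 change of 1.41 with an interaction of 0.78 (edgeR adjusted p = 1.5e-05). HPT1 and ADE12 of purine synthesis were higher in npl3-F245I at 30 °C and lower at 37 °C (log2 changes of -0.35 and -0.25 there).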

How the data were processed

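Total RNA was sequenced with a stranded mRNA kit. Per the submitters' processing notes, FastQC, STAR 2.7.2a and HTSeq were used with build R64, and the authors deposited whole-number counts per gene, not normalized. Whether the counting used strand is not given here. The 5 HTSeq summary rows were left out of library sizes and tests. Reads without a feature came to 4.81 to 5.32% in the 6 libraries compared, and ambiguous reads to 0.787 to 0.848%. Over all 24 libraries the depth was 15.8 to 34.7 M assigned counts, and the common biological coefficient of variation was 5.26%.

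Counts of all 24 libraries were fitted with edgeR 4.0.16 (R 4.3.3, TMM factors, filterByExpr, robust quasi-likelihood test, 1 mean per group). Benjamini-Hochberg adjustment ran over the 6518 genes that passed the filter, with a threshold of 0.05. The interaction is the log2 change at 37 °C minus that at 30 °C. Folds and log2 changes are the fitted npl3-F245I over npl3-F162Y values unless another pair is named. The fit was tested on simulated data. DESeq2 1.42.0, other scalings, filters, sample sets, replicate blocks and fits without 1 library were the alternatives.

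Genes were named by a rule. It takes NPL3, the 12 largest rises and 12 largest falls among named protein-coding genes that passed the test, averaged at least 10 CPM and had groups that do not overlap, and the 4 largest called members of each list. It adds all members of the phosphate, vitamin, mating and mRNP lists and the 4 largest interactions each way. The comparison, the 38 lists and the motifs were chosen with earlier results of these data known. Copies were sought with BLAST 2.17.0 at 95% identity over at least 100 bases among 6002 coding sequences.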

Additional observations from a re-analysis of the deposited data

Results flagged for a closer look

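The difference between npl3-F245I and npl3-F162Y was not the same at 37 °C and 30 °C for 825 genes in edgeR's interaction test. Each value below is the log2 change at 37 °C minus that at 30 °C. Among genes that were lower in npl3-F245I at 30 °C, the value was 0.36 for PHO89, 0.53 for HSP12, 0.54 for PHO11, 0.62 for STB2, 0.50 for VID30, 0.78 for TSL1, 1.27 for HXK1, 0.82 for GPH1, 0.86 for GSY1 and 0.95 for HPF1, so the deficit was smaller, absent or reversed at 37 °C. It was -0.48 for OSI1 and -1.0 for NCE103, whose deficits were larger at 37 °C. NPL3 itself had 0.78. HXT1, MRX7 and DAK2, which did not pass at 30 °C, had -0.87, -0.85 and -1.04. Of the genes higher in npl3-F245I at 30 °C, BUD9 had 0.36, EFM3 -0.52 and XPT1 -0.25. The calls for EFM3, OSI1, STB2, TSL1, VID30 and XPT1 were lost in some fits without 1 library.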

How the results depend on the processing

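No named gene that passed the test changed sign under the alternatives run. With total counts as the only scaling the median log2 change of all genes against NPL3 was 0.07 in npl3-F245I and 0.08 in npl3-F162Y, against -0.04 in both, and the medians of the snoRNA, splicing, mRNP and nitrogen lists at 30 °C crossed 0 in some fits. List counts of 3 or fewer often changed without 1 library. Fitting only the 6 libraries compared gave 3339 genes (1655 higher and 1684 lower) at 30 °C. Fitting only the 4 groups of these alleles gave 1754 interactions (911 higher and 843 lower). A mean of at least 10 CPM left 17 genes changed at least 2-fold, 2 higher and 15 lower. With total counts as the only scaling, chosen after the data were seen, interactions split into 768 higher and 233 lower, and genes lower than in NPL3 numbered 1301 in npl3-F245I and 1651 in npl3-F162Y. DESeq2 called 2291 genes at 30 °C. Same-numbered libraries of the 2 alleles had residual correlations of 0.04, -0.05 and -0.22 at 30 °C, and differently numbered ones from -0.19 to 0.21. Residuals around a mean of 3 libraries are tied to each other, so these values cannot decide whether the libraries are paired. At 37 °C number 2 is the other sample-number series in every group, and its pairing was not tested. A replicate block within each temperature gave 2540 genes at 30 °C and 1259 interactions, 651 of them lower. Without 1 library each, the count at 30 °C was 1548 to 1885 (692 to 931 higher and 856 to 962 lower), that of 2-fold changes 42 to 47 (14 to 19 and 25 to 30), that at 37 °C 2058 to 2465 (944 to 1181 and 1099 to 1284), and that of interactions 541 to 951 (299 to 489 and 242 to 462). Against NPL3 it was 3395 to 3545 for npl3-F245I (1450 to 1515 and 1940 to 2060) and 4148 to 4251 for npl3-F162Y (1800 to 1854 and 2348 to 2412), and NPL3 had a log2 change of -0.41 to -0.32. The cause was not tested.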

Other observations

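Several features with larger changes than the named genes lie outside the naming rule because they have no standard name or a low level, and were chosen after their values were seen. YNL018C had 4.88, 6.69 and 6.67 CPM in npl3-F245I, 0.514, 0.713 and 0.451 CPM in npl3-F162Y and 3.06, 2.72 and 4.00 CPM in NPL3 (log2 change 3.44 at 30 °C and 3.96 at 37 °C). YNL034W had 4.48, 4.28 and 4.28 CPM in npl3-F245I, 0.844, 0.936 and 0.361 CPM in npl3-F162Y and 1.10, 1.38 and 1.20 CPM in NPL3 (2.58 and 2.96). In both, every npl3-F245I library lay above every library of the other strains.

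PHM6, a phosphate-regulated gene that is not in the list, had 3.24, 4.36 and 4.20 CPM in npl3-F245I, 10.4, 11.3 and 10.2 CPM in npl3-F162Y and 1.90, 2.21 and 1.71 CPM in NPL3 (log2 change -1.43 at 30 °C and -2.02 at 37 °C).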
